A study of Homo sapiens with 8 samples.

Results

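WT HCT116 cells were compared after 24 h in 0.5 µM doxorubicin and without treatment, from the 4 WT samples of the series' 8, 2 untreated and 2 treated, chosen by the labelled genotype and treatment. HCT116 is an established line from a human colon carcinoma that keeps a working p53 gene. The other 4 samples are cells of the same line with a mutant DPF2, which belongs to the BAF chromatin remodellers. They entered here through the fitted spread between samples, the filter that chose the genes tested and the scaling of the libraries. WT cells carried no edit, and the labels name no vehicle for the untreated cells. They do not say whether the 2 samples of a group were separate cultures, so the p-values below rest on a spread that may be technical.

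Doxorubicin intercalates into DNA and traps topoisomerase II on broken strands. The breaks activate the checkpoint kinases and p53, which induces genes of arrest, repair and apoptosis, while the cell cycle genes are repressed through the DREAM complex. Cells in such arrest are known to change what they secrete and display, and the gene families below cover these outputs: ligands and their antagonists, receptors, adhesion and matrix genes, transporters, enzymes, transcription factors and noncoding RNAs.

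The WT samples held 28111673 to 33727374 counts each, and 17868 of 60669 genes had enough counts to be tested. Values below are CPM, a gene's counts per 1000000 counts of a library size scaled by TMM. CPM is not divided by gene length, so where genes are ranked or grouped by CPM, the order also reflects their length. Log2 changes are doxorubicin against untreated with their standard error, and "rose" and "fell" are used only at a Benjamini-Hochberg adjusted p under the cutoff of 0.05 in edgeR's quasi-likelihood test. Of colon epithelial markers, EPCAM stood at 311 and 337 CPM untreated and 249 and 226 CPM treated, and KRT8 and KRT18 were also high, while CDX1 had at most 1 count and CDH17 at most 7 in a sample. Of the 5 fibroblast markers DCN and LUM had 0 counts in every sample and COL1A2 at most 2, although COL1A1 was read at 55.2 and 62.96 CPM untreated and 33.3 and 54.7 CPM treated. The 5 blood and 3 endothelial markers had at most 35 counts in a sample. Mitochondrial genes took 11.5% and 11.2% of counts untreated and 14.6% and 13.6% treated. The strand setting of the deposited counts was 1 in untreated replicate 1 and 2 in the other 3 WT samples. The 2 untreated samples correlated at 0.9935 across genes in log2 CPM, against 0.9916 for the 2 treated samples.

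Genes were called in both directions. Of 17868 genes tested, 4301 rose (24.1%) and 4219 fell (23.6%). At least 2-fold changes were called for 906 higher genes (5.07%) and 1051 lower genes (5.88%), and the median log2 change was -0.03. The 2 groups of WT samples did not overlap in 12482 of the 17868 genes, called or not, so non-overlap below is a description only. The balance of rises and falls depends on the scaling, since TMM centres the changes near 0, and with mitochondrial genes left out of the scaling 4604 genes rose and 3862 fell. These 4 percentages are the background over all genes, noncoding ones included. Over the 13276 protein-coding genes with a symbol, 29.1% rose and 24.6% fell, 5.29% and 3.96% at least 2-fold. Those shares are the closer background for the families of protein-coding genes below. Families are described by counts only, with no test of the family as a whole, and family counts of 1 or 2 moved by 1 or 2 when a sample was left out. In bulk RNA, fewer cells of a type and less RNA per cell cannot be told apart.

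In CPM, the largest rises were in transcripts of the mitochondrial genome. MT-CO1, a subunit gene of cytochrome c oxidase, was read at 23429 and 24060.0 CPM untreated and 30469 and 28615 CPM treated (0.32 ± 0.07, edgeR adjusted p = 0.000843). ACTG1, which encodes cytoplasmic gamma actin, was read at 4780.3 and 5495 CPM untreated and 2447 and 2324 CPM treated, a fall of 2.15-fold (log2 change -1.11 ± 0.08, edgeR adjusted p = 1.56e-12). ACTB, the beta actin gene, stood at 1670.1 and 1861 against 1787 and 1702 CPM, with overlapping groups (-0.02 ± 0.07). HMGA1, an architectural chromatin protein gene, fell from 3252 and 3629.7 to 1558 and 1538 CPM (-1.15 ± 0.07). RBCK1, a subunit gene of the linear ubiquitin ligase, fell from 662 and 769 to 151 and 183 CPM (-2.10 ± 0.09). Both treated samples lay under both untreated samples for ACTG1, HMGA1 and RBCK1. Among rises of nuclear genes, the p53 target CDKN1A went from 522 and 568 to 2048 and 1958 CPM. FAT1, an atypical cadherin, rose from 1819 and 1449 to 2801 and 3008 CPM (0.83 ± 0.09). KRT19, a simple epithelial keratin gene, rose from 595 and 712 to 1488 and 1532 CPM (1.21 ± 0.08), and KRT8 rose by 0.64 ± 0.07. ALDH1A3, which makes retinoic acid, rose from 296 and 303 to 949 and 923 CPM (1.64 ± 0.07). SFN, the cell cycle inhibitor 14-3-3 sigma, rose from 134 and 164 to 548 and 551 CPM (1.88 ± 0.08). In none of these rises did the groups overlap, nor did they in 12482 of all 17868 genes tested.

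Growth factor ligands split by family. Of 14 WNT ligands tested (of 19 in the tables), 8 rose, 7 of them at least 2-fold, and 2 fell, with a median log2 change of 0.94. Without untreated replicate 1, 4 were called at least 2-fold higher. WNT16, a ligand known from damaged stroma, stood at 23.6 and 23.4 CPM untreated and 64.1 and 59.1 CPM treated (1.39 ± 0.07). WNT4 was at 1.02 and 1.39 against 6.89 and 6.33 CPM (2.47 ± 0.20), and WNT7A at 1.41 and 1.28 against 3.36 and 4.56 CPM (1.55 ± 0.23). WNT7B, another well-read member, did not pass the test (25.2 and 27.4 against 23.3 and 23.7 CPM). The secreted antagonists of WNT and BMP signals also moved up, with 11 of 14 higher and 2 lower (median 0.98). Without untreated replicate 1 the higher count was 6, and without treated replicate 1 it was 7. DKK1, which blocks the WNT coreceptors, was the most read member at 253 and 248 CPM untreated and 748 and 659 CPM treated. FSTL3, an activin antagonist, rose from 16.1 and 17.6 to 38.9 and 38.9 CPM (1.21 ± 0.09), and CHRD, a BMP antagonist, from 14.2 and 16.5 to 25.1 and 25.5 CPM (0.72 ± 0.10).

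FGF ligands went the other way. Of 9 tested, 0 rose and 5 fell (median -0.70), and 3 fell without untreated replicate 2 and 3 without treated replicate 2. FGF19, an enterohepatic hormone and growth factor, fell from 75.2 and 86.3 to 31.01 and 30.2 CPM (-1.40 ± 0.08, edgeR adjusted p = 1.73e-14). Of 9 EGF family ligands tested, 5 rose and 2 fell. EREG fell from 944 and 862 to 711 and 682 CPM (-0.37 ± 0.07) and BTC from 8.33 and 8.16 to 3.11 and 4.33 CPM (-1.14 ± 0.17). AREG rose from 293 and 301 to 431 and 381 CPM (0.45 ± 0.07), and TGFA rose by 0.57 ± 0.07. All those named are ligands of the EGF receptor, and their groups did not overlap. Of 18 angiogenic and platelet growth factors, 9 rose and 3 fell, and the lower count was 1 without treated replicate 1. PGF, placental growth factor and a ligand of VEGF receptor 1, rose from 3.60 and 3.77 to 30.4 and 29.9 CPM, an 8.18-fold rise (3.03 ± 0.11, edgeR adjusted p = 6.7e-18). VEGFA itself stood at 149 and 150.0 against 131 and 134 CPM (-0.17 ± 0.06), and it no longer passed the test without treated replicate 1 (-0.16) or without treated replicate 2 (-0.15). The matricellular genes CCN1 (11.3 and 11.7 against 36.2 and 35.4 CPM, 1.64 ± 0.09) and CCN2 (1.71 and 1.79 against 7.46 and 6.49 CPM, 1.99 ± 0.18) also rose. Both are classic outputs of the coactivators YAP and TAZ, and of 25 genes on a list of YAP and TAZ pathway genes and targets, 20 rose and 2 fell (median 0.49). AMOTL2 (log2 change 1.58 ± 0.07) and AJUBA (1.25 ± 0.07), which regulate the pathway, were among those that rose. NT5E, the surface enzyme that makes adenosine, was one of the 2 that fell, from 321 and 332 to 118 and 105 CPM (-1.55 ± 0.07), and FGF2 was the other (-0.27 ± 0.09), without a call once untreated replicate 1 (-0.15) or treated replicate 2 (-0.21) was left out.

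Cytokine genes moved singly. Of 16 interleukins and colony stimulating factors tested, 8 rose and 2 fell. CSF1, the macrophage growth factor, rose from 4.86 and 6.11 to 16.02 and 16.3 CPM (1.57 ± 0.13). IL12A and EBI3, which encode the 2 chains of interleukin 35, rose from 1.92 and 1.65 to 6.36 and 6.63 CPM (1.86 ± 0.20) and from 0.510 and 0.988 to 5.87 and 5.84 CPM (3.0 ± 0.25). TSLP, an alarmin of epithelia, fell from 1.83 and 1.46 to 0.283 and 0.328 CPM (-2.42 ± 0.35), and IL15 fell from 4.20 and 4.69 to 1.91 and 2.33 CPM (-1.06 ± 0.19). CXCL8, a neutrophil chemokine, was low and fell from 2.07 and 1.98 to 1.17 and 0.951 CPM (-0.94 ± 0.25). Of 8 chemokines tested, CXCL16 rose and CXCL8 and CXCL3 fell. The log2 change of CXCL3 was -1.12 ± 0.40, and its call was lost without untreated replicate 1 (-0.68), treated replicate 1 (-1.18) or treated replicate 2 (-1.04). A list of secreted factors reported for senescent cells held 40 tested genes, with 12 higher, 10 of them at least 2-fold, and 13 lower, 1 of them at least 2-fold. GDF15, a stress cytokine on that list, stood at 1098 and 1263 CPM untreated and 1222 and 1191 CPM treated, with overlapping groups. PLAT, tissue plasminogen activator, rose from 4.83 and 4.47 to 15.6 and 15.4 CPM (1.74 ± 0.14). PLAUR, the urokinase receptor, fell from 91.6 and 105 to 61.4 and 58.3 CPM (-0.71 ± 0.07).

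**Figure D1:**
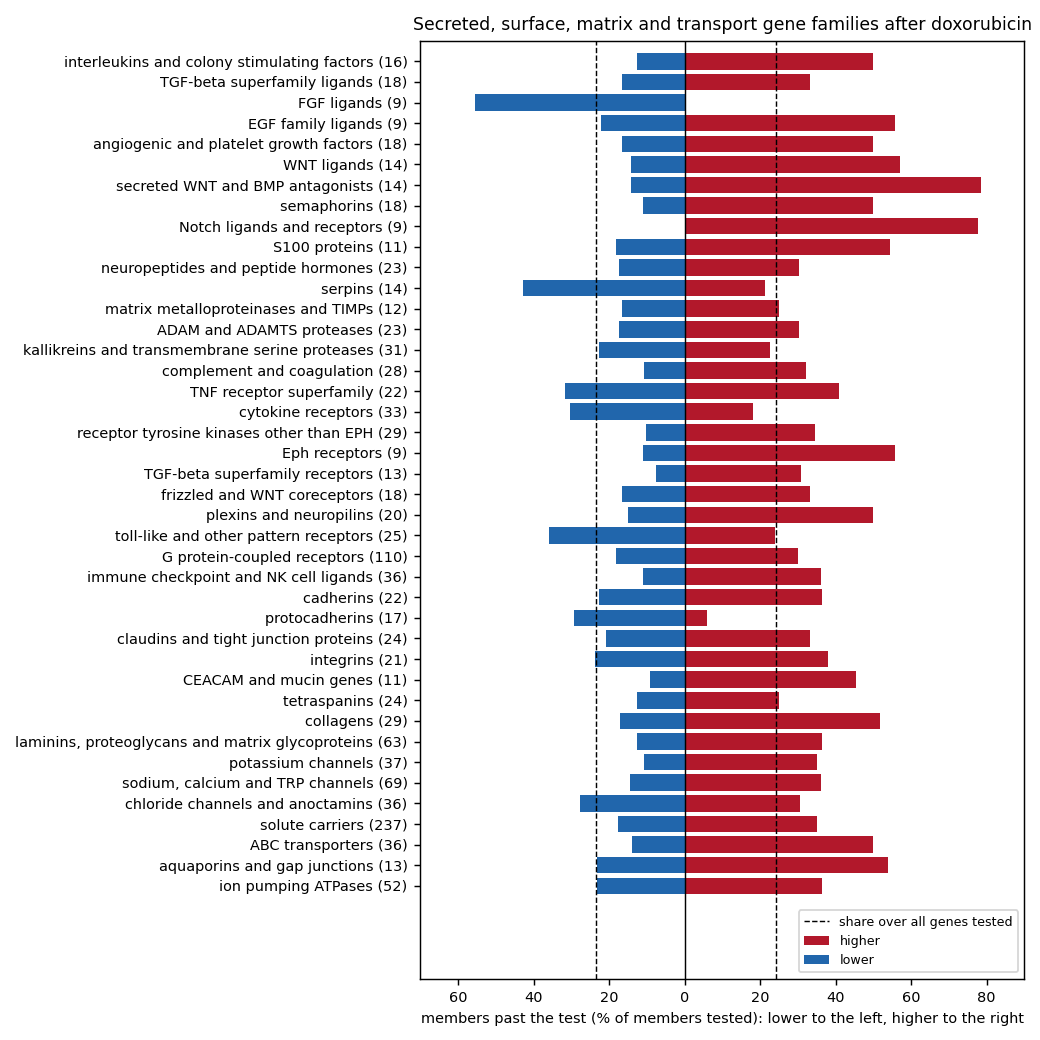
Bars give the share of tested members that rose (right, red) or fell (left, blue) for secreted, surface, matrix and transport families, with the number tested in parentheses, and dashed lines mark 24.1% higher and 23.6% lower over all genes tested. Over protein-coding genes with a symbol, which has no line, the shares were 29.1% and 24.6%. Among the families plotted, WNT and BMP antagonists and Notch genes reach farthest to the right and FGF ligands farthest to the left.

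Notch genes rose together. Of 9 ligands and receptors tested, 7 rose and 0 fell (median 0.89). The ligand JAG2 rose from 47.4 and 57.6 to 118 and 132 CPM (1.26 ± 0.08) and JAG1 from 45.6 and 43.8 to 79.5 and 77.6 CPM (0.81 ± 0.07). The receptor NOTCH1 rose from 74.9 and 71.4 to 138 and 157 CPM (1.01 ± 0.07), NOTCH3 by 0.89 ± 0.07 and NOTCH2 by 0.47 ± 0.07. HES2 and HES6, of the HES family of transcription factors that includes Notch targets, rose from 13.04 and 10.4 to 74.6 and 70.9 CPM (2.62 ± 0.09) and from 12.6 and 17.6 to 48.9 and 49.99 CPM (1.72 ± 0.11). In all of these the lower treated sample lay above the higher untreated one.

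Guidance molecules moved on both the ligand and the receptor side. Of 18 semaphorins, 9 rose and 2 fell. The secreted class 3 members SEMA3B (18.2 and 20.8 against 50.5 and 65.997 CPM, 1.59 ± 0.11), SEMA3F (16.9 and 20.3 against 45.4 and 45.6 CPM, 1.30 ± 0.09) and SEMA3G (4.50 and 4.61 against 14.9 and 18.1 CPM, 1.86 ± 0.12) were among them. Their coreceptors split. NRP2 rose from 1.98 and 1.68 to 13.5 and 13.2 CPM (2.86 ± 0.15, edgeR adjusted p = 5.25e-15), whereas NRP1 fell from 18.7 and 18.7 to 6.89 and 8.27 CPM (-1.30 ± 0.11, edgeR adjusted p = 8.4e-11). Neither gene's groups overlapped. Netrin 1, encoded by NTN1, rose from 14.8 and 14.9 to 52.2 and 52.4 CPM (1.82 ± 0.09), while UNC5B, a netrin receptor that signals death when unbound, fell from 126 and 130.2 to 95.2 and 96.6 CPM (-0.42 ± 0.06). The plexin PLXNB1 rose from 48.6 and 49.6 to 97.6 and 125 CPM (1.18 ± 0.09). Ephrins split as well, with EFNB1 up from 28.7 and 28.1 to 89.2 and 85.4 CPM (1.62 ± 0.07) and EFNB2 down from 40.3 and 41.8 to 20.6 and 19.4 CPM (-1.04 ± 0.08). Of 9 Eph receptors, which bind ephrins, 5 rose and 1 fell, among them EPHA2 from 341 and 364 to 587 and 596 CPM (0.75 ± 0.07) and EPHB3 from 10.7 and 10.1 to 23.4 and 23.8 CPM (1.19 ± 0.10).

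Neuropeptide and hormone genes changed in both directions. VGF, a secreted neuroendocrine peptide precursor, fell from 368 and 444 to 120.2 and 119 CPM (-1.76 ± 0.12, edgeR adjusted p = 5.2e-07). NMU, neuromedin U, fell from 12.6 and 13.6 to 7.99 and 6.89 CPM (-0.82 ± 0.12). TAC3, the neurokinin B gene, rose from 0.240 and 0.0732 to 1.84 and 2.20 CPM (3.59 ± 0.43), and ADM, adrenomedullin, from 9.08 and 12.04 to 20.4 and 20.6 CPM (0.96 ± 0.12). Of 23 such genes tested, 7 rose and 4 fell, and the other 12 did not pass the test. SPX, the spexin gene, went from 11.6 and 11.3 to 1.17 and 0.787 CPM. Without untreated replicate 1, which held most of its few untreated counts, the log2 change of TAC3 was 4.71.

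Among protease genes and their inhibitors, SERPINB5, which encodes maspin, rose from 20.6 and 19.7 to 147 and 131 CPM, a 6.91-fold change (log2 2.79 ± 0.08, edgeR adjusted p = 1.69e-20). SERPINB8 fell from 18.9 and 19.7 to 7.71 and 8.23 CPM (-1.27 ± 0.11). Over the 14 serpins tested, 3 rose and 6 fell. ADAMTS7, a metalloproteinase with thrombospondin motifs, rose from 19.8 and 19.1 to 79.2 and 98.7 CPM (2.20 ± 0.09), and MMP14, a membrane metalloproteinase, from 32.3 and 34.95 to 71.4 and 75.4 CPM (1.13 ± 0.08). The transmembrane protease TMPRSS4 rose from 1.92 and 2.42 to 8.70 and 8.20 CPM (1.97 ± 0.17). Coagulation genes also changed. F5, coagulation factor V and a known p53 target, rose from 0.330 and 0.293 to 3.29 and 4.46 CPM (3.62 ± 0.30), PROCR, the protein C receptor, from 37.9 and 42.9 to 111 and 106 CPM (1.43 ± 0.07), and TFPI, the inhibitor of the tissue factor pathway, fell from 52.9 and 45.1 to 25.99 and 23.4 CPM (-0.99 ± 0.09).

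Surface receptors changed gene by gene. Among 22 TNF receptors, 9 rose and 7 fell. The lower count was 3 without untreated replicate 2 and 3 without treated replicate 1. FAS rose from 11.6 and 12.5 to 42.6 and 40.1 CPM (1.78 ± 0.09). The decoy receptors for the death ligand TRAIL parted, with TNFRSF10C up from 4.65 and 3.73 to 21.003 and 20.2 CPM (2.29 ± 0.13) and TNFRSF10D down from 102 and 104 to 64.8 and 65.6 CPM (-0.65 ± 0.06). Of the receptors that signal, TNFRSF10A rose by 0.90 ± 0.07, and TNFRSF10B stood at 516 and 537 against 579 and 576 CPM without passing the test. Of 33 cytokine receptors, 6 rose and 10 fell, and of 25 toll-like and other pattern receptors, 6 rose and 9 fell. IL20RB, a chain of the receptor for interleukins of the IL-10 family, dropped from 25.6 and 28.1 to 2.19 and 2.59 CPM, 11.2-fold. IL17RB and IL4R rose, from 5.61 and 5.09 to 17.3 and 18.8 CPM (1.75 ± 0.12) and from 40.4 and 41.7 to 73.5 and 78.3 CPM (0.89 ± 0.07). Among pattern receptors, TLR3, which binds double-stranded RNA, rose from 6.86 and 7.32 to 16.1 and 14.7 CPM (1.12 ± 0.12) and TLR6 fell from 10.7 and 9.74 to 5.13 and 4.72 CPM (-1.06 ± 0.13).

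G protein-coupled receptors formed the largest receptor family, with 110 of 332 tested. Of these 33 rose (30%) and 20 fell (18.2%), against 24.1% and 23.6% over all genes. Over protein-coding genes with a symbol the shares were 29.1% and 24.6%, so the share that rose was near that of coding genes. PTAFR, the receptor of platelet-activating factor, rose from 10.97 and 11.6 to 44.9 and 43.95 CPM (1.98 ± 0.09). P2RY2, a nucleotide receptor, rose from 4.56 and 4.58 to 14.2 and 14.9 CPM (1.67 ± 0.13), and CXCR2, the receptor of CXCL8, from 0.270 and 0.146 to 2.72 and 1.84 CPM (3.39 ± 0.41). GPRC5A, the orphan receptor with the largest gain in CPM of the family, rose from 822 and 786 to 1244 and 1242 CPM (0.63 ± 0.07). Among receptor tyrosine kinases, FGFR3 rose from 22.1 and 25.2 to 49.4 and 51.5 CPM (1.10 ± 0.08), while MET, the most read member, stood at 603 and 534 against 641 and 585 CPM and did not pass the test.

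**Figure D2:**
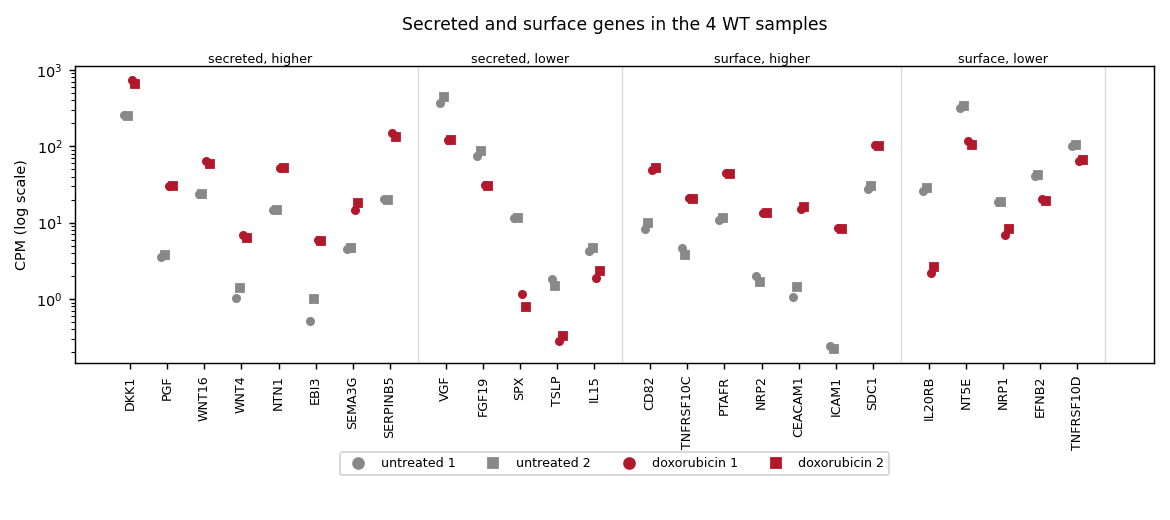
Points give CPM on a log axis in the 2 untreated (grey) and 2 treated (red) WT samples for secreted and surface genes that rose or fell. In every gene shown both treated samples lie on one side of both untreated samples, with ICAM1 at 0.240 and 0.220 CPM untreated and at 8.45 and 8.30 CPM treated. The same held for 12482 of the 17868 genes tested.

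Adhesion and junction genes changed one by one. CD82, a tetraspanin known for restraining cell migration, rose from 8.33 and 9.96 to 48.5 and 51.3 CPM (2.46 ± 0.09). CEACAM1 rose from 1.05 and 1.43 to 15.2 and 15.8 CPM, and the secreted mucin gene MUC2 from 0.659 and 0.439 to 4.95 and 9.58 CPM (3.70 ± 0.37), with treated replicate 2 the higher of its group. On a list of colonic lineage markers, 10 of 16 tested genes rose and 0 fell, but only 16 of 50 had counts enough to be tested, and genes that were high only after treatment could enter that way. DSC3, a desmosomal cadherin, rose from 23.8 and 21.8 to 52.3 and 50.1 CPM (1.16 ± 0.08), and FAT2, a relative of FAT1, from 1.32 and 0.659 to 6.29 and 6.17 CPM (2.61 ± 0.24, and 3.23 without untreated replicate 1). Integrins split by chain: ITGB4, the hemidesmosomal chain, rose from 800.3 and 908 to 1046 and 1144 CPM (0.36 ± 0.07), whereas ITGB1 fell from 644 and 612 to 426 and 376 CPM (-0.65 ± 0.07) and ITGA3 from 1694 and 1814 to 1166 and 1199 CPM (-0.57 ± 0.07). The groups did not overlap for these 3 chains. Among checkpoint and natural killer cell ligands, 13 of 36 rose and 4 fell. NECTIN4, a junction protein, rose from 5.10 and 5.64 to 18.7 and 20.1 CPM (1.86 ± 0.11), and VSIR, the checkpoint protein VISTA, from 20.4 and 20.9 to 52.1 and 50.9 CPM (1.32 ± 0.08).

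Matrix genes rose more often than they fell. Of 29 collagens, 15 rose (10 at least 2-fold) and 5 fell (2 at least 2-fold). COL5A1, a chain of fibrillar collagen V, was read at 0.360 and 0.220 CPM untreated and 9.12 and 12.9 CPM treated. COL17A1, the transmembrane collagen of hemidesmosomes, rose from 1.86 and 1.72 to 12.3 and 12.9 CPM (2.81 ± 0.17), and COL6A3, a microfibril chain, fell from 8.33 and 9.04 to 2.09 and 1.51 CPM (-2.27 ± 0.17). Of 63 laminins, proteoglycans and matrix glycoproteins, 23 rose and 8 fell. HSPG2, the basement membrane proteoglycan perlecan, rose from 173 and 168 to 406 and 493 CPM (1.40 ± 0.08). SDC1, a cell surface proteoglycan, rose from 27.5 and 29.9 to 105 and 101 CPM (1.85 ± 0.08), LAMC3, a laminin chain, from 13.5 and 13.4 to 48.4 and 58.9 CPM (2.0 ± 0.10), and LOXL4, a collagen crosslinking enzyme, from 4.50 and 5.05 to 26.7 and 26.9 CPM (2.49 ± 0.12).

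Channel and transporter genes also rose more often than they fell, as did protein-coding genes with a symbol (29.1% higher and 24.6% lower). Chloride channels and anoctamins were near even, with 11 of 36 higher and 10 lower (median -0.03). Of 237 solute carriers, 83 rose (35%) and 42 fell (17.7%). SLC7A5, the large neutral amino acid transporter, fell from 1671 and 1758 to 1049 and 1062 CPM (-0.70 ± 0.07), and SLC2A3, a glucose transporter, from 3.18 and 5.05 to 1.06 and 0.853 CPM (-2.09 ± 0.25). SLC16A6, a carrier of the monocarboxylate family, rose from 12.6 and 12.96 to 50.6 and 45.8 CPM (1.92 ± 0.09). ABC transporters rose in 18 of 36 cases and fell in 5. ABCA12, a keratinocyte lipid transporter, rose from 21.2 and 17.5 to 103 and 93.9 CPM (2.34 ± 0.08), ABCC2, an exporter of drug conjugates, from 112 and 106 to 309 and 316 CPM (1.52 ± 0.07), and ABCA1, the cholesterol exporter, from 10.8 and 9.19 to 28.8 and 26.9 CPM (1.48 ± 0.12). ABCB1, the pump known for exporting doxorubicin, fell from 9.62 and 7.47 to 4.81 and 3.87 CPM (-0.99 ± 0.15). The gap junction gene GJB2 (17.4 and 18.5 against 60.6 and 53.7 CPM, 1.67 ± 0.08) and the aquaporin AQP3 (21.5 and 22.4 against 62.1 and 52.4 CPM, 1.38 ± 0.09) rose. Among voltage-gated channels, SCN2A rose from 0.719 and 0.622 to 3.61 and 4.03 CPM (2.50 ± 0.21), CACNA1C from 0.270 and 0.220 to 1.56 and 1.77 CPM (2.73 ± 0.45), and SCN9A fell from 2.79 and 2.78 to 0.884 and 0.951 CPM (-1.60 ± 0.22). ATP2C2, a Golgi calcium pump gene, fell from 61.6 and 67.4 to 23.6 and 23.7 CPM (-1.45 ± 0.08).

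Enzymes of lipid mediators held several large rises. PLA2G4D, a cytosolic phospholipase, went from 0.480 and 0.549 to 17.1 and 19.98 CPM. ALOX5, which starts leukotriene synthesis, rose from 2.76 and 3.77 to 21.8 and 22.04 CPM (2.76 ± 0.14, edgeR adjusted p = 2.6e-15), and PTGES, a prostaglandin E synthase, from 26.6 and 27.7 to 52.01 and 48.5 CPM (0.89 ± 0.08). Of 22 eicosanoid enzymes, 9 rose and 2 fell, and of 61 phospholipases 22 rose and 10 fell. ACER2, a ceramidase and known p53 target, rose from 7.28 and 7.61 to 25.95 and 24.5 CPM (1.76 ± 0.10), while SMPD3, a neutral sphingomyelinase, fell from 5.73 and 6.52 to 1.59 and 2.39 CPM (-1.60 ± 0.18). INPP5D, the inositol phosphatase SHIP1 best known from blood cells, went from 2.64 and 2.89 to 34.9 and 36.7 CPM, and PTPRE, a tyrosine phosphatase, from 20.1 and 21.7 to 98.97 and 99.1 CPM (2.25 ± 0.07). The blood cell markers PTPRC, CD3E and CD68 had at most 6 counts in any WT sample.

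Enzymes of sugar and nucleotide chemistry moved in both directions. GALNT5, which starts mucin-type glycans, rose from 23.1 and 20.4 to 155 and 155 CPM (2.83 ± 0.08), and B3GALT5, which extends glycans of the colon, fell from 18.6 and 17.2 to 3.57 and 3.81 CPM (-2.28 ± 0.12). UPP1, uridine phosphorylase, fell from 110.0 and 131 to 25.8 and 28.9 CPM (-2.13 ± 0.08), while RRM2B, the p53-induced subunit of ribonucleotide reductase, rose from 151 and 140.4 to 447 and 392 CPM (1.52 ± 0.07). Over the 85 glycosyltransferases tested, 23 rose and 23 fell. CYP24A1, which degrades vitamin D, rose from 95.2 and 87.3 to 172 and 165 CPM (0.88 ± 0.07), and CYP2R1, which activates it, fell from 48.9 and 50.5 to 24.3 and 20.3 CPM (-1.16 ± 0.08). For iron, both ferritin genes fell: FTH1 from 2053 and 2537 to 1321 and 1238 CPM (-0.84 ± 0.08) and FTL from 980.3 and 1168 to 718 and 686 CPM (-0.61 ± 0.08). STEAP3, an iron reductase, rose from 37.5 and 39.3 to 91.2 and 96.5 CPM (1.29 ± 0.07). GSDME, a pore-forming gasdermin, rose from 9.74 and 10.9 to 30.3 and 31.6 CPM (1.59 ± 0.10).

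Cytoskeletal genes moved in both directions. Of 23 genes of tubulins and their nucleating complexes, 7 rose and 9 fell. The 3 most read alpha and beta tubulin genes fell, TUBA1B from 402 and 435 to 245 and 247 CPM (-0.77 ± 0.07), TUBA1C from 295 and 340.1 to 151 and 147 CPM (-1.09 ± 0.07) and TUBB4B from 245 and 270.2 to 131 and 134 CPM (-0.96 ± 0.07). TUBA4A rose from 12.3 and 14.1 to 31.8 and 34.6 CPM (1.34 ± 0.09). Beside the fall of ACTG1, the smooth muscle actin gene ACTA2 rose from 6.38 and 8.13 to 38.4 and 36.9 CPM (2.39 ± 0.10), and MYO1A, a brush border myosin, from 0.599 and 0.622 to 4.99 and 5.58 CPM (3.11 ± 0.27). Of 23 keratins and other intermediate filament genes, 12 rose and 4 fell. VIM, vimentin, fell from 2.91 and 2.96 to 0.318 and 0.525 CPM (-2.78 ± 0.26), and LMNB1, the lamin lost in senescent cells, from 104 and 101 to 63.2 and 61.2 CPM (-0.73 ± 0.06). Of 67 genes of cilia, 10 rose and 22 fell.

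Transcription factor families differed in direction. HOX genes fell in 14 of 29 cases and rose in 4 (median -0.32), and KLF and SP factors fell in 11 of 23 and rose in 3 (median -0.20). KLF2, known from quiescent cells, fell from 42.7 and 60.5 to 18.5 and 19.6 CPM (-1.43 ± 0.14), KLF6 from 103 and 101 to 60.8 and 58.03 CPM (-0.78 ± 0.07) and KLF7 from 76.4 and 70.6 to 30.3 and 28.7 CPM (-1.32 ± 0.08). Basic helix-loop-helix factors rose in 19 of 46 and fell in 9. ID2, an inhibitor of such factors, rose from 36.4 and 37.3 to 135 and 119 CPM (1.78 ± 0.07), while its relative ID1 fell from 258 and 312 to 234 and 220.4 CPM (-0.33 ± 0.07). The interferon regulators IRF7 (23.3 and 32.4 against 10.997 and 12.5 CPM, -1.24 ± 0.13) and IRF9 (8.78 and 8.97 against 3.64 and 3.71 CPM, -1.27 ± 0.15) fell. PRDM1, a transcriptional repressor known from terminal differentiation, rose from 1.71 and 1.57 to 6.44 and 6.69 CPM (1.99 ± 0.19), and ESRRB, an orphan nuclear receptor, from 3.33 and 3.81 to 14.4 and 14.01 CPM (2.0 ± 0.13). Of 372 genes named ZNF, 69 rose and 79 fell, and without untreated replicate 1 the lower count was 48. Of 51 DEAD-box and related RNA helicases, 24 rose and 6 fell. DDX21, a nucleolar member, rose from 350.2 and 318 to 578 and 507 CPM (0.70 ± 0.07).

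Intergenic and antisense RNAs fell more often than they rose, and the number called changed with the sample left out. By GENCODE type, 259 of 1039 intergenic long noncoding RNAs fell and 110 rose (median -0.33), and 277 of 1168 antisense RNAs fell and 91 rose (median -0.32). Of 13498 protein-coding genes, 3919 rose and 3304 fell (median 0.02). The median for intergenic RNAs was -0.25 without treated replicate 1 and -0.42 without treated replicate 2, and for antisense RNAs -0.27 and -0.39. Without treated replicate 1, 164 intergenic and 177 antisense RNAs fell. Without untreated replicate 1, the library counted with the other strand setting, 172 intergenic and 189 antisense RNAs fell, and the medians were -0.29 and -0.33. Sense intronic transcripts depended on the sample left out, with 35 of 234 lower over all 4 samples, 14 without treated replicate 1, 51 without treated replicate 2, 13 without untreated replicate 1 and 31 without untreated replicate 2. Of 42 snoRNA genes 6 rose (3 without untreated replicate 1) and 2 fell (median 0.38), and of 44 genes typed as miscellaneous RNA 2 rose and 3 fell (median 0.10, and -0.46 without treated replicate 2). Between the treated samples the median log2 difference of replicate 1 from replicate 2 was -0.29 for sense intronic, -0.15 for intergenic and 0.02 for protein-coding transcripts, and between the untreated samples it was 0.07, 0.03 and -0.02. These noncoding genes had fewer counts than most coding genes, so the classes were also set side by side at like level. Between 5 and 20 CPM, 39.6% of 212 intergenic and antisense RNAs fell and 18.9% rose, against 24.6% and 29.2% of 2805 protein-coding genes. Under 0.5 CPM, the level with the most such RNAs, 13.4% of 761 fell and 4.47% rose. Of 736 protein-coding genes at that level 12.8% fell and 16.3% rose, so there the classes differed mainly in rises.

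Named long noncoding RNAs moved both ways, with 18 of 59 tested higher and 20 lower. UCA1, an oncofetal RNA, rose from 80.2 and 77.01 to 349.7 and 321 CPM (2.09 ± 0.08, edgeR adjusted p = 7.51e-18). PINCR, a known p53-induced RNA, was read at 0.659 and 0.842 CPM untreated and 12.9 and 14.4 CPM treated, and LNCTAM34A, which lies head to head with the miR-34a host gene, at 1.35 and 1.32 against 6.47 and 6.92 CPM (2.32 ± 0.20). MIR34AHG itself rose from 9.56 and 8.64 to 15.7 and 20.4 CPM (0.99 ± 0.12). PVT1 rose from 46.7 and 50.1 to 84.7 and 99.3 CPM (0.93 ± 0.07), and CRNDE, an RNA high in colorectal neoplasia, fell from 33.3 and 28.95 to 12.7 and 13.4 CPM (-1.25 ± 0.10). NEAT1, the scaffold of paraspeckles, stood at 1529 and 1527 CPM untreated and 737 and 1148 CPM treated (-0.70 ± 0.21, edgeR adjusted p = 0.0443). It no longer passed the test without untreated replicate 1 (-0.70) or without untreated replicate 2 (-0.70), and its change was -0.41 without treated replicate 1 and -1.02 without treated replicate 2. MALAT1, another nuclear RNA, stood at 863 and 619 against 409 and 582 CPM and did not pass the test. In both nuclear RNAs treated replicate 1 was the lowest sample. Host genes of microRNAs fell in 9 of 31 cases and rose in 2 (4 without treated replicate 1). MIRLET7IHG, host of a let-7 family member, fell from 3.66 and 3.26 to 0.778 and 0.951 CPM (-1.99 ± 0.24). Host genes of snoRNAs rose in 8 of 28 cases and fell in 8, none of them 2-fold.

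RNAs named for the gene they oppose were then set beside that gene. Of 507 antisense RNAs with a tested partner, 149 fell and 47 rose, while of the partners 154 fell and 136 rose. Both changed in 108 pairs, of which 16 rose together, 52 fell together, 27 had a lower RNA and a higher gene, and 13 the reverse. Of 269 divergent transcripts, which start beside a gene's promoter and run away from it, 77 fell and 22 rose, and both partners changed in 62 pairs, 11 rising together, 30 falling together, 18 with a lower RNA and a higher gene, and 3 the reverse. Over the whole list of 274 divergent transcripts, with or without a tested partner, the 77 falls became 49 without untreated replicate 1 and 46 without treated replicate 1. Log2 changes of RNA and partner had a Pearson r of 0.23 and a Spearman rho of 0.20 over antisense pairs, and 0.40 and 0.33 over divergent pairs, across genes of the same libraries. HK2-DT rose by 2.52 ± 0.33 and its partner HK2, hexokinase 2, by 0.76 ± 0.07. GASK1B-AS1 and GASK1B rose by 2.68 ± 0.35 and 3.10 ± 0.19. CDKN2B-AS1 fell from 7.49 and 5.75 to 1.63 and 1.94 CPM (-1.90 ± 0.19) and its partner CDKN2B, an inhibitor of cyclin-dependent kinases, from 70.9 and 72.98 to 49.2 and 46.2 CPM (-0.59 ± 0.07). UNC5B-AS1 rose from 1.38 and 1.28 to 6.08 and 4.79 CPM (2.02 ± 0.23) while UNC5B fell, and ADAMTSL4-AS1 fell (-2.16 ± 0.35, and -3.10 without treated replicate 2) while ADAMTSL4 rose by 1.05 ± 0.18. RNF157-AS1 rose from 1.11 and 1.28 to 14.1 and 16.5 CPM and its partner RNF157 did not pass the test (0.989 and 1.10 against 1.17 and 0.853 CPM).

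Genes of 1 family that lie side by side were compared within 46 runs of at least 3 tested members with gaps of at most 300 kb. The runs described were singled out after their values were seen. Genes high in only 1 group could pass the count filter through that group, so runs whose tested members all moved together are a description. KRT9 had 1 and 0 counts untreated against 21 and 17 treated, and KRT17 had 7 and 5 against 71 and 70. In 5 runs every member was called in 1 direction, 10 runs held calls in both directions and 5 held none. Positions are those of the deposited tables (hg38). Several members of these families are near-identical, so single values are uncertain. Reads that fit more than 1 member may have been dropped at the minimum mapping quality of 10 or assigned to the wrong one. On chromosome 17 from 41459811 to 41624842, all 6 tested type I keratins rose, each at least 2-fold: KRT19 at the levels given above, KRT15 from 20.5 and 22.9 to 53.04 and 63.6 CPM (1.43 ± 0.09), KRT17 from 0.210 and 0.183 to 2.51 and 2.30 CPM (3.58 ± 0.36), and KRT9 (4.99 ± 0.94), KRT13 (1.48 ± 0.52) and KRT32 (1.18 ± 0.49), which stayed under 1 CPM. The calls of KRT13 and KRT32 were lost without untreated replicate 1 (1.02 and 0.81) or treated replicate 2 (1.03 and 0.74), and the change of KRT9, with 1 untreated count, was 7.33 and 4.26 without each untreated replicate. On chromosome 19 from 10271093 to 10339661 all 4 ICAM genes rose. ICAM1, a ligand of leukocyte integrins, went from 0.240 and 0.220 to 8.45 and 8.30 CPM, ICAM5 from 26.5 and 30.9 to 50.4 and 60.7 CPM (0.96 ± 0.09) and ICAM3 from 2.16 and 1.87 to 3.29 and 3.02 CPM (0.64 ± 0.20). ICAM3 lost its call without untreated replicate 2 (0.54) or treated replicate 1 (0.58). ICAM4 had 1 and 0 counts untreated and 53 and 43 treated. The ratio of summed counts over summed scaled library sizes was 99.1 (95% exact interval 17.4 to 3960.0, counting error only). The 4 tested metallothioneins, which bind zinc and copper, fell on chromosome 16 from 56608584 to 56684196, MT2A from 312 and 361 to 110.4 and 118 CPM (-1.56 ± 0.08) and MT1E from 103 and 127 to 39.1 and 38.1 CPM (-1.57 ± 0.08). MT1F was the weakest (-0.61 ± 0.25) and lost its call without untreated replicate 2 (-0.38), treated replicate 1 (-0.70) or treated replicate 2 (-0.49). HOXD8 (-1.24 ± 0.12), HOXD3 (-1.92 ± 0.37) and HOXD4 (-1.27 ± 0.27) fell on chromosome 2 from 176129694 to 176173102.

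In the CYP4F run on chromosome 19 from 15508525 to 15934867, which encodes fatty acid hydroxylases, 5 of 6 rose. CYP4F2 and CYP4F3 gained most in CPM, from 1.77 and 1.76 to 40.7 and 44.9 and from 7.67 and 8.13 to 60.5 and 61.3 CPM. CYP4F11 rose from 49.8 and 50.8 to 78.7 and 82.5 CPM (0.68 ± 0.07), and CYP4F22 stood at 5.43 and 6.77 against 6.40 and 6.69 CPM without passing the test. In the APOBEC3 run on chromosome 22 from 38982347 to 39104067, which encodes cytidine deaminases, APOBEC3C rose from 58.8 and 59.7 to 162 and 157 CPM (1.43 ± 0.06), as did APOBEC3D (1.96 ± 0.39), APOBEC3F (0.55 ± 0.08) and APOBEC3H (1.86 ± 0.21). APOBEC3B fell from 11.7 and 12.9 to 5.83 and 6.63 CPM (-0.98 ± 0.13). Of 9 S100 genes on chromosome 1 from 153534599 to 153632039, 6 rose and 0 fell. S100A2, known from basal epithelia, rose from 5.64 and 5.60 to 26.6 and 28.4 CPM (2.29 ± 0.13), S100A4 from 71.5 and 82.2 to 178 and 160.2 CPM (1.14 ± 0.08) and S100A6 from 598 and 750.3 to 1277 and 1202 CPM (0.88 ± 0.08), while S100A14 and S100A16 did not pass the test (0.03 ± 0.07 and 0.09 ± 0.07). TRIM22, an antiviral ubiquitin ligase and known p53 target, rose from 1.38 and 1.06 to 6.58 and 7.68 CPM (2.53 ± 0.20) beside TRIM6, which fell from 7.73 and 6.66 to 3.78 and 2.46 CPM (-1.22 ± 0.18).

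Some genes were nearly silent in one condition. Under 0.1 CPM untreated and at least 1 CPM treated were 23 genes, 21 of them with a symbol, and 4 genes did the reverse. Since these were picked by their levels, the levels are a description. Just outside, SNAI2, the transcription factor Slug, stood at 0.150 and 0.110 CPM untreated and 1.34 and 0.951 CPM treated, and OVOL2, a repressor of mesenchymal genes, at 1.20 and 1.35 against 0.0707 and 0.164 CPM. RNASE7, an antimicrobial ribonuclease of the skin, had 0 counts in both untreated samples and 36 and 40 in the treated ones, at least 26.2-fold higher against a floor of 3 counts over the group. CYP11B1, a steroid hydroxylase of the adrenal, had 0 untreated and 26 and 40 treated counts, at least 22.7-fold higher against the same floor. AKR1B10, an aldo-keto reductase, had 3 and 2 counts untreated and 172 and 218 treated. Its ratio of summed counts over summed scaled library sizes was 80.5 (95% exact interval 34.2 to 249, counting error only). Late cornified envelope genes of chromosome 1, which are near-identical to each other, were among the 23. LCE1C had 5 and 1 counts untreated and 126 and 140 treated (ratio 45.8, 20.8 to 126), and LCE1F had 2 and 1 against 98 and 102 (ratio 68.8, 23.2 to 337). SPRR2D, another cornified envelope gene of that chromosome, did the reverse, with 68 and 61 counts untreated and 0 and 2 treated, a ratio of untreated to treated of 62.5 (16.9 to 521). TRIM29 (2 and 2 counts against 50 and 49), the laminin gene LAMA1 (2 and 1 against 49 and 45), the chloride channel regulator CLCA2 (2 and 2 against 46 and 56) and the homeodomain factor POU3F1 (2 and 0 against 34 and 46) also went from near silence to above 1 CPM. TNNI2, a troponin gene, had 0 and 3 counts untreated but 39 and 94 treated, so its 2 treated samples differed by more than those of the others named. Of genes outside the limits, SYT8, a synaptotagmin gene, stood at 0.180 and 0.110 CPM untreated and 6.36 and 8.76 CPM treated, and KLHDC7B, a kelch domain gene, went the other way, from 5.96 and 7.10 to 0.318 and 0.230 CPM. SORCS2, a sorting receptor of the VPS10 family, started a little higher, at 0.959 and 0.805 CPM, and reached 43.1 and 46.5 CPM.

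Promoters of protein-coding genes were compared in windows of 250 bases before to 50 after the RefSeq start (GRCh38.p14), which 10832 tested genes had. Motifs were searched on both strands, with no test. CCAAT, the box bound by NF-Y, stood in 36.6% of all windows, in 46.2% of the 416 genes at least 2-fold lower and in 30.5% of the 524 at least 2-fold higher. TTTGAA, the cell cycle homology region bound by the DREAM complex, stood in 9.56% of all, 26.2% of lower and 9.35% of higher genes, and both motifs together in 4.02%, 15.6% and 2.67%. TATAAA was found in 5.71% of all, 12.3% of lower and 10.3% of higher genes, and GGGCGG in 69.7%, 57.5% and 66.2%. TTTCCCGC or TTTGGCGC, forms of the E2F site, stood in 3.66%, 3.12% and 3.24%, TGACGTCA in 3.14%, 2.16% and 1.91%, and TTGCATCA in 0.499%, 0.962% and 0.382%. A pair of exact p53 half-sites up to 13 bases apart was in 3 of the 10832 windows. TTTGAA is short, and a match is not a bound site.

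4 of these windows are shown from just before their first match to the end, with the CCAAT box and the TTTGAA element on either strand and p53 half-site pairs in capitals, because they belong to genes with a large change and differ in motif content. PIF1, a DNA helicase gene, fell from 26.7 and 29.8 to 1.41 and 1.44 CPM, and HMMR, a spindle gene, from 110.4 and 101 to 18.03 and 16.5 CPM (-2.62 ± 0.08). Both windows have the CCAAT box and the TTTGAA element. NEK2, a centrosomal kinase gene, fell from 70.4 and 70.6 to 11.9 and 11.6 CPM (-2.59 ± 0.08) with 2 CCAAT boxes and no TTTGAA, and PTCHD4, a known p53 target and repressor of Hedgehog signals, rose from 2.07 and 1.76 to 9.51 and 8.07 CPM (2.19 ± 0.16) with a p53 half-site pair.
PIF1, chr15:64825598-64825805, minus strand: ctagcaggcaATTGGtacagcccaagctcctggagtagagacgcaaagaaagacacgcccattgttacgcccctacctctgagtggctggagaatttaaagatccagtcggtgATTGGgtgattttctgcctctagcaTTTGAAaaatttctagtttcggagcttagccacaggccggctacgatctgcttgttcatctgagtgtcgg
HMMR, chr5:163460445-163460681, plus strand: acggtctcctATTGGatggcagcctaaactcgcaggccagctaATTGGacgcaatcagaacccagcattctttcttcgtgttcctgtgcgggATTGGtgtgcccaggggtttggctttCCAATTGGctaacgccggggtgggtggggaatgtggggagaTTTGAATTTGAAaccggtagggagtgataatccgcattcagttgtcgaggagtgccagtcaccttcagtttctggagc
NEK2, chr1:211675572-211675697, minus strand: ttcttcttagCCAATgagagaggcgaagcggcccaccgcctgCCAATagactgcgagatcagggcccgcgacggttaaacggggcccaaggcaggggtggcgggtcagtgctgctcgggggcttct
PTCHD4, chr6:48111148-48111325, minus strand: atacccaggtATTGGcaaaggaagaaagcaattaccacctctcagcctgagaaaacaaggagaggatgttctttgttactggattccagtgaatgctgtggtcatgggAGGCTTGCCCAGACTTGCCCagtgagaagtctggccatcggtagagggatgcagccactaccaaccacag

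The NEK2 window ends 50 bases after the RefSeq start, and NEK2-DT runs from 211675749 on the opposite strand, so both transcripts start beside the boxes printed above. NEK2-DT had 34 and 42 counts untreated and 2 and 0 treated, a ratio of untreated to treated of 36.8 (95% exact interval 9.84 to 309, counting error only). It is one of the 4 genes that went from at least 1 CPM to under 0.1 CPM. The PTCHD4 window lies upstream of the gene model in the deposited tables, which ends at 48068689 on chromosome 6. The other 2 windows with a half-site pair belong to MCC, which rose from 41.4 and 36.4 to 79.5 and 75.6 CPM (0.99 ± 0.08), and DYNC2H1, which fell from 9.62 and 8.27 to 5.83 and 6.49 CPM (-0.54 ± 0.12).

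Doxorubicin is known to hinder polymerases on DNA, so changes were set against the length of genes. Over 13498 protein-coding genes in 10 equal groups by genomic span, the median log2 change went from 0.05 in the group of shortest genes (up to 5843 bases) to -0.02 in that of the longest (from 162511 bases), and Spearman's rho with span was -0.054 across genes, which are not independent. Genes at least 2-fold higher made up 8.74% of the shortest group, 3.26% of the 7th and 6.07% of the longest, so their share did not decline steadily with span. At least 2-fold lower genes made up 4.74% of the shortest group, 4.67% of the 7th and 4.30% of the longest. The same coefficient was -0.015 with exonic length and 0.00031 with the number of exons.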

How the data were processed

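RNA was extracted with TRIzol and sequenced from stranded mRNA libraries, per the labels' protocols. The deposited files hold raw read counts per gene, made by the authors with featureCounts 2.0.1 against GENCODE 34 with a minimum mapping quality of 10, per the file headers. The submitters' processing notes name hg38, STAR 2.7.5a, DESeq2 1.36.0, Trim Galore 0.6.10, FastQC 0.11.4 and another featureCounts version, 1.5.0-p1. The deposited TPM table was not used. Gene types are those of GENCODE 29, matched by gene identifier for 58482 of 60669 genes, and symbols were matched for 42013.

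Counts of all 8 libraries were fitted in edgeR 4.0.16 (R 4.3.3) with 1 mean per group, TMM scaling, filterByExpr and the robust quasi-likelihood test, leaving 4 residual degrees of freedom, and p-values were adjusted over 17868 genes. A standard error is the log2 change divided by the square root of F. Class medians are medians of the edgeR log2 changes, and only the median differences between replicates use log2(CPM + 0.1). Totals were 28111673 to 33727374 counts per WT library, and the common coefficient of biological variation was 5.35%. On simulated counts for 16723 genes with known changes in this comparison, 83% of 100 genes changed 2-fold and 96% of 100 changed 4-fold were called, with 9 unchanged genes among 188 calls. Every simulated gene had the common spread and few were changed. These rates therefore need not hold for real genes of wider spread, or where many genes change.

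The members and the 94 gene lists were chosen with earlier results of these data known. Protein lists keep genes that RefSeq calls protein-coding. Genes named in the text come from up to 6 members per list by size of change and 3 by level, the 12 largest changes, the 15 largest CPM differences, genes near silence in 1 group, RNA and partner pairs, neighbours and markers, and not all of these are named; a few are not reported here. Reads that fit more than 1 near-identical gene may have been dropped or assigned to the wrong one. Alternatives were other scaling (DESeq2 size factors, TMM without mitochondrial genes), no filter on low counts, DESeq2 1.42.0, a fit on the 4 WT libraries, a replicate block, and leaving out each WT library.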

Additional observations from a re-analysis of the deposited data

How the results depend on the processing

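All 4 counts of called genes stayed within 1.5 times under every alternative. Genes higher ranged from 3734 to 4604, genes lower from 3277 to 4219, genes at least 2-fold higher from 824 to 1001, and at least 2-fold lower from 756 to 1170. The 1001 genes at least 2-fold higher came without the filter on low counts, where more genes were tested. Leaving out each WT library in turn gave 3734 to 4298 higher and 3555 to 3692 lower genes, 829 to 915 at least 2-fold higher and 829 to 1170 at least 2-fold lower. DESeq2 called 3935 higher and 3277 lower genes, and the fit on the 4 WT libraries 4092 and 3348. With the replicate number as a block, 4234 genes were higher, 4109 lower, 897 at least 2-fold higher and 1028 at least 2-fold lower. The numbers were not taken to pair the samples, since deviations of same-numbered samples from their group means had a correlation of -0.0759. Of 1880 family counts over the alternatives, 1766 stayed within 1.5 times and 114 did not. No called gene named here reversed direction. Calls lost under at least 1 alternative were those of CXCL3, FGF2, ICAM3, KRT13, KRT32, MT1F, NEAT1 and VEGFA, and the cause was not tested. With 2 samples a group, depth limits the genes near 1 CPM and below, where single counts decide the fold.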
